A study of Homo sapiens with 4 samples.

Results

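The transcription factor NRF2 and the redox defense around it were followed as a group of 9 genes in RKO colorectal cancer cells after knockdown of CHD7, a chromatin remodeller of the CHD family. The genes were chosen by symbol, and each had a row among the 15357 genes of the count and FPKM tables. They are NFE2L2, which encodes NRF2, its inhibitor KEAP1, the classical NRF2 targets NQO1, HMOX1, GCLC, GCLM, TXNRD1 and SRXN1, and GPX4, the enzyme that reduces lipid hydroperoxides. Of these 9 genes, HMOX1 and TXNRD1 were higher in the knockdown, and the other 7 did not pass the test.

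RNA-seq was carried out on 2 samples of RKO cells labelled vector and 2 samples labelled shCHD7_2. RKO is an established human colorectal cancer cell line, grown here in EMEM with serum. The shCHD7_2 cells stably carried a lentiviral short hairpin RNA against the CHD7 mRNA, and the vector cells are the control, which the methods describe as expressing control shRNA. One CHD7 hairpin was sequenced, so an effect of CHD7 loss and an effect of this hairpin sequence cannot be told apart. Nothing in the sources used here says that the replicates were separate cultures, so the p-values measure the spread between these samples, which may be technical.

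NRF2 is made continuously and is normally bound by KEAP1, which presents it to the CUL3 ubiquitin ligase for degradation. Oxidants and electrophiles modify cysteines of KEAP1, and the NRF2 that escapes enters the nucleus, pairs with a small MAF protein and binds antioxidant response elements in front of genes for glutathione synthesis, the thioredoxin system, quinone reduction and heme breakdown. Much of this control acts on the NRF2 protein, which RNA-seq does not measure.

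The estimated counts summed to between 15734679 and 16068650 per sample, and 11955 genes passed the filter on low counts. CHD7 itself had 85.4 and 91.0 CPM (counts scaled to a common library size, with TMM factors) in the vector samples and 55.5 and 50.1 CPM in the shCHD7_2 samples, a fold change of 0.599 (edgeR adjusted p = 4.2e-06). The epithelial markers EPCAM, KRT8 and KRT18 were expressed, with a summed FPKM of the epithelial list of 70.7 to 76.1 in vector and 76.9 to 84.5 in shCHD7_2 samples, while CDH1 and CLDN4 were under the filter and KRT19 had no row. Of 7 colon markers 3 had a row, and of these CDX2 reached a mean FPKM of 1. The 2 of 6 fibroblast markers and the 2 of 3 endothelial markers that had a row each summed to at most 0.1 FPKM in any sample. The leukocyte list summed to 495 to 530 FPKM in vector and 602 to 611 FPKM in shCHD7_2 samples, nearly all of it CD68, while 2 of its 4 markers (PTPRC and CD3E) had no row. CD68 is a lysosomal protein made in many cell types. The part of these markers in the results was not tested.

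Promoter sequence was examined for the antioxidant response element. The RefSeq promoter windows (GRCh38.p14, 250 bases before to 50 bases after a gene start) held entries for 8 of the 9 genes, all but HMOX1, with 13 windows in all, since a gene with several starts has several windows. The core TGACNNNGC was searched on both strands. It was found for GCLM, KEAP1 and TXNRD1, that is 3 of 8 genes and 4 of 13 windows. It occurred in 13.3% of all 35116 windows, for 16.1% of the 27305 genes with a window, and for 19.3% of the 9457 of these that were tested. The matches are printed with 10 bases on either side because GCLM and TXNRD1 are established NRF2 targets and, of these genes, the RNA of only TXNRD1 passed the test. The capitals mark the 9 bases of the match, which reads TGACNNNGC or, where it lies on the strand opposite to the gene, its reverse complement.
GCLM, chr1:93909446-93909474, minus strand, match on the opposite strand: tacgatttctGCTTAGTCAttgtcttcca
KEAP1, chr19:10502784-10502812, minus strand, match on the opposite strand: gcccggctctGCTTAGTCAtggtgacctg
KEAP1, chr19:10502807-10502835, minus strand, match on the gene strand: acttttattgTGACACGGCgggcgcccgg
TXNRD1, chr12:104215670-104215698, plus strand, match on the gene strand: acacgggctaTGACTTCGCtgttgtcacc
TXNRD1, chr12:104215761-104215789, plus strand, match on the opposite strand: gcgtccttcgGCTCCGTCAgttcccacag
TXNRD1, chr12:104286920-104286948, plus strand, match on the opposite strand: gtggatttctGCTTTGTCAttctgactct
GCLM and KEAP1 shared the same 9 bases in the GCTTAGTCA match. The GCLM match began 34 bases before the RefSeq start at position 93909430, which lies inside the GENCODE gene. Those of KEAP1 began 31 and 54 bases before the second of its 2 RefSeq starts. TXNRD1 also has 2 RefSeq starts, with matches 99 and 8 bases before the first and 102 bases before the second, while GENCODE 29 gives it 15 different starts of coding transcripts. A match of letters does not show that a factor bound there, and the absence of a match says nothing of sites outside the windows.

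All 9 genes were well covered, with estimated counts between 421 and 6630 per sample, and all passed the filter. With both a fold threshold of 1.5 and an adjusted p threshold of 0.05, 1 of the 9 genes was called higher and 0 lower, beside 1.51% and 1.37% of all genes tested. Without the fold threshold, 2 of 9 were called higher and 0 lower, beside 4.94% and 6.54% of all genes tested. For the lower direction, edgeR gave 0 genes at an unadjusted p under 0.05 and DESeq2 gave 0 at an adjusted p under 0.05. The median log2 fold change of the 9 genes was 0.085, and that of all genes tested was 0.000557. In 5 genes both shCHD7_2 samples lay above both vector samples, in 1 gene they lay below, and in 3 the samples overlapped. Over all genes tested, 26.4% lay above and 27.3% lay below in this way. These shares are given as background, since the genes were chosen with earlier results known.

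**Figure D1:**
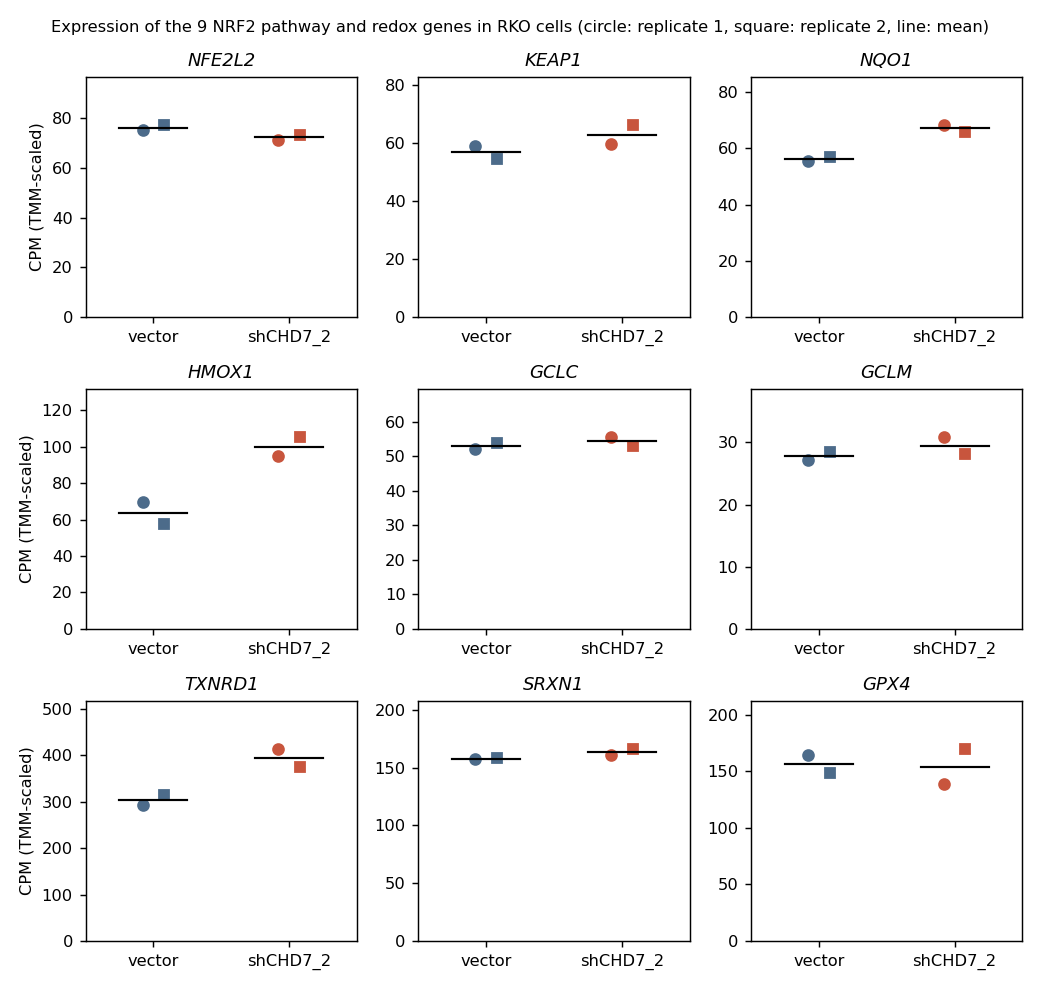
CPM on TMM-scaled library sizes of each of the 9 genes in the 2 vector and 2 shCHD7_2 samples, with a line at each group mean and each vertical axis starting at 0. HMOX1 and TXNRD1 show the highest ratios of group means (1.57-fold and 1.30-fold), and the GCLC, GCLM and GPX4 samples overlap.

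NFE2L2 (chr2:177227595-177392697, minus strand, GRCh38), the gene of NRF2, had 75.2 and 77.3 CPM in vector samples and 71.5 and 73.5 CPM in shCHD7_2 samples. Both knockdown samples were the lower ones, by a margin smaller than the error of the fit. The log2 fold change was −0.074 (SE 0.084, 95% interval −0.25 to 0.10, edgeR adjusted p = 0.634), and the interval spans folds from 0.843 to 1.07. NFE2L2 overlaps AGPS on the opposite strand, and whether the counting used strand is not given in the sources used here. AGPS had 117 and 117 CPM in vector and 123 and 110 CPM in shCHD7_2 samples, a log2 fold change of −0.0046 (edgeR adjusted p = 0.981).

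KEAP1 (chr19:10486120-10503741, minus strand), the adaptor that hands NRF2 to the ubiquitin ligase, had 59.1 and 54.6 CPM in vector samples and 59.7 and 66.3 CPM in shCHD7_2 samples. The lower knockdown sample lay just above the higher vector sample. The log2 fold change was 0.15 (SE 0.090, 95% interval −0.037 to 0.34, edgeR adjusted p = 0.313). On the FPKM scale, which is per length, the ratio of NFE2L2 to KEAP1 was 1.14 and 1.26 in vector samples and 1.07 and 0.987 in shCHD7_2 samples. The ratio was lower in both knockdown samples, and the exact two-sided permutation test gave p = 0.333, the smallest value that 2 against 2 samples can give.

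HMOX1 (chr22:35380361-35394214, plus strand) encodes heme oxygenase 1, which opens the heme ring and releases iron, carbon monoxide and biliverdin. It had 69.9 and 57.5 CPM in vector samples and 94.7 and 105.3 CPM in shCHD7_2 samples. The groups did not overlap, although its vector samples lay further apart, relative to their mean, than those of the other genes of the group. HMOX1 rose 1.57-fold (95% interval 1.37 to 1.80), a log2 fold change of 0.65 (SE 0.095, edgeR adjusted p = 6.2e-05), and 97.7% of all genes tested had a lower log2 fold change. In FPKM the values were 48.2 and 39.6 in vector and 67.6 and 74.3 in shCHD7_2 samples. The fold threshold was not reached without vector replicate 2 (log2 fold change 0.52, edgeR adjusted p = 0.0038) or without shCHD7_2 replicate 2 (0.57, edgeR adjusted p = 1.4e-06), and the rise itself passed the test in both. With no filter on low counts, the edgeR adjusted p was 0.068.

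TXNRD1 (chr12:104215779-104350305, plus strand) encodes the cytosolic thioredoxin reductase, a selenoprotein that keeps thioredoxin reduced with electrons from NADPH. It had 293.1 and 314.9 CPM in vector samples and 413.5 and 375.2 CPM in shCHD7_2 samples. Every knockdown value was above every vector value, and TXNRD1 had the highest counts of the 9 genes. TXNRD1 rose 1.30-fold (95% interval 1.16 to 1.45), a log2 fold change of 0.38 (SE 0.076, edgeR adjusted p = 0.0018), which is past the test and under the fold threshold of 1.5. Without vector replicate 1 the log2 fold change was 0.32 and the edgeR adjusted p 0.077, and with no filter on low counts it was 0.37 with an edgeR adjusted p of 0.086. EID3 overlaps TXNRD1 on the same strand and had 0.837 and 0.823 CPM in vector and 0.811 and 0.815 CPM in shCHD7_2 samples, far below TXNRD1.

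NQO1 (chr16:69706996-69726951, minus strand), a flavoprotein that reduces quinones directly to hydroquinones and is a widely used readout of NRF2 activity, had 55.6 and 56.9 CPM in vector samples and 68.3 and 65.9 CPM in shCHD7_2 samples. The groups were well apart relative to the spread within each. The fold change was 1.19, with a log2 fold change of 0.25 (SE 0.086, 95% interval 0.076 to 0.43). NQO1 missed the threshold after adjustment over all genes tested (edgeR adjusted p = 0.057). With library totals in place of TMM the log2 fold change was 0.30 and the edgeR adjusted p 0.025, and limma on log2(FPKM + 1) with a minimum mean FPKM of 1 gave 0.29 and an adjusted p of 0.033, while DESeq2 gave 0.26 and an adjusted p of 0.15. The side of the threshold on which NQO1 fell thus differed between processing choices. The median log2 fold change of all genes tested was also higher with library totals (0.045) and in that limma fit (0.038) than with TMM (0.000557).

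SRXN1 (chr20:646615-653370, minus strand) encodes sulfiredoxin, which restores peroxiredoxins that peroxide has overoxidized. It had 157.2 and 158.2 CPM in vector samples and 161.2 and 166.1 CPM in shCHD7_2 samples. Both knockdown samples were higher, but the log2 fold change of 0.054 (SE 0.076, 95% interval −0.10 to 0.21, edgeR adjusted p = 0.709) was smaller than its error. A protein-coding gene model, AL121758.1, overlaps SRXN1 on the same strand and is not analysed here.

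The subunits of glutamate-cysteine ligase, the rate-limiting enzyme of glutathione synthesis, are encoded by GCLC and GCLM. GCLC (chr6:53497341-53616970, minus strand), the catalytic subunit, had 52.2 and 53.9 CPM in vector samples and 55.6 and 53.02 CPM in shCHD7_2 samples. GCLM (chr1:93885205-93909456, minus strand), the modifier subunit that raises the affinity of the enzyme for glutamate, had 27.1 and 28.5 CPM in vector samples and 30.9 and 28.1 CPM in shCHD7_2 samples. In both genes the vector and knockdown samples overlapped. The log2 fold change was 0.034 for GCLC (SE 0.087, 95% interval −0.15 to 0.21, edgeR adjusted p = 0.850) and 0.085 for GCLM (SE 0.10, 95% interval −0.12 to 0.29, edgeR adjusted p = 0.648). The GCLC value was −0.0051 without shCHD7_2 replicate 1. Per length, the ratio of GCLC to GCLM was 2.66 and 2.61 in vector samples and 2.50 and 2.60 in shCHD7_2 samples (exact two-sided permutation p = 0.333, the smallest possible). The catalytic subunit mRNA was therefore the more abundant of the pair in every sample.

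GPX4 (chr19:1103926-1106791, plus strand) is a selenoprotein that protects membranes from lipid peroxidation and from ferroptosis. It had 163.9 and 148.1 CPM in vector samples and 138.7 and 169.6 CPM in shCHD7_2 samples. The knockdown samples were the lowest and the highest of the 4, on either side of the vector samples. The log2 fold change was −0.017 (SE 0.090, 95% interval −0.20 to 0.17, edgeR adjusted p = 0.929). Its sign was not settled at this error. Library totals in place of TMM gave 0.026 and the fit without shCHD7_2 replicate 1 gave 0.12.

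The fitted log2 fold changes of the NRF2 targets ran from 0.65 for HMOX1 and 0.38 for TXNRD1, through 0.25 for NQO1, to between 0.034 and 0.085 for GCLC, SRXN1 and GCLM. The lower end of the HMOX1 interval, 0.45 on the log2 scale, was above the upper end for NQO1 (0.43), GCLM (0.29), GCLC (0.21) and SRXN1 (0.21). It was below the upper end for TXNRD1 (0.53), so these 2 intervals overlapped. The lower end for TXNRD1, 0.22, was below the upper ends for NQO1 and GCLM. These intervals belong to single genes, and the differences between genes were not tested.

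**Figure D2:**
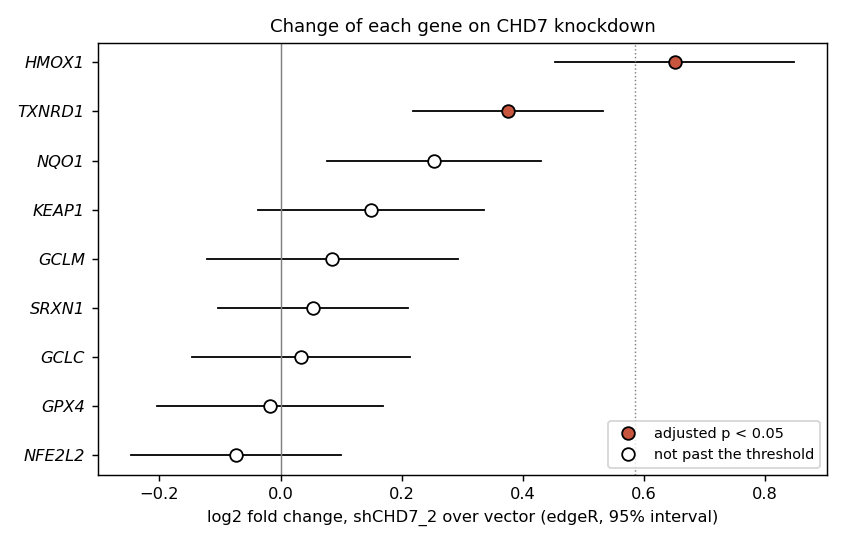
Log2 fold change of each of the 9 genes, shCHD7_2 over vector, from edgeR with 95% intervals as horizontal lines and 2 samples per group. Filled points mark an adjusted p under 0.05 over all genes tested, the solid vertical line marks no change and the dotted line a 1.5-fold rise, and HMOX1 alone lies beyond the dotted line.

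Levels between genes were compared in FPKM, which is per length. In vector samples GPX4 was the most abundant of the 9 mRNAs at 197 ± 15 FPKM (SD, n = 2), above 97.9% of all listed genes. It was followed by TXNRD1 at 79.7 ± 3.8, SRXN1 at 61.2 ± 0.18, HMOX1 at 43.9 ± 6.1 and NFE2L2 at 27.8 ± 0.46 FPKM (SD, n = 2). KEAP1 at 23.2 ± 1.3 and NQO1 at 22.9 ± 0.36 FPKM overlapped and have no order between them. GCLC at 14.7 ± 0.32 and GCLM at 5.6 ± 0.19 FPKM closed the list, and GCLM was above 43.8% of listed genes. Apart from KEAP1 and NQO1, neighbours in this order did not overlap between samples.

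In shCHD7_2 samples the order changed at 2 places. HMOX1 at 70.9 ± 4.7 FPKM (SD, n = 2) lay above SRXN1 at 65.5 ± 0.95 FPKM, the reverse of the vector samples. NQO1 at 28.2 ± 0.94 FPKM lay above NFE2L2 at 27.2 ± 0.31 FPKM, narrowly in replicate 2 (27.5 against 27.43 FPKM). KEAP1 at 26.5 ± 1.8 FPKM overlapped both NQO1 and NFE2L2 and has no order with them. GPX4 at 199.9 ± 25, TXNRD1 at 107 ± 8.0, GCLC at 15.5 ± 0.60 and GCLM at 6.1 ± 0.41 FPKM kept their places. The number of reads behind 1 FPKM, which reflects the transcript length used, differed between samples by at most 1.18% (GPX4) and by as little as 0.0315% (SRXN1), beside a median of 0.939% over 8638 genes with an FPKM of at least 5 in every sample. Only 2 of the 36 count values of the 9 genes were not whole numbers, as arises where reads are divided between genes.

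**Figure D3:**
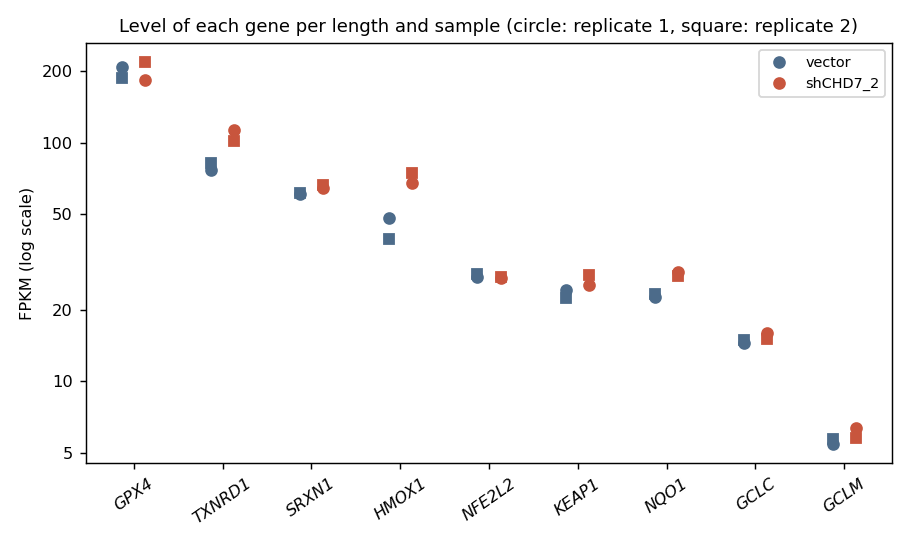
FPKM of each of the 9 genes in every sample on a log axis, with genes ordered by their vector mean and circles and squares for replicates 1 and 2. In the shCHD7_2 samples HMOX1 lies above SRXN1 and NQO1 just above NFE2L2, while NQO1 and KEAP1 overlap in both groups.

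The pathway around these genes was described with 9 wider lists, which hold 202 genes, 168 of them tested. The lists include the 9 genes and were drawn up with earlier results of these data known. On the list of genes linked to p53 and redox alone, 8 of 13 tested genes were higher at an adjusted p under 0.05. With those 8 included, 24 of the 168 were higher (14.3%) and 6 were lower (3.57%), beside 4.94% and 6.54% of all genes tested. Of these 30 calls, 15 passed the test in every fit that left out a sample, and DESeq2 called 21 genes of the lists. In the list of NRF2 control, with 23 genes tested including NFE2L2 and KEAP1, 1 gene was lower and 0 were higher (3 at an unadjusted p under 0.05 in edgeR, 0 in DESeq2), and the median log2 fold change was 0.047. The gene that fell was MAFF, a small MAF partner of NRF2, with a log2 fold change of −0.33 (SE 0.097, edgeR adjusted p = 0.028). The MAFF call was lost in every fit without a sample except the one without shCHD7_2 replicate 2, with values from −0.39 to −0.28, and in DESeq2 (adjusted p = 0.15). CUL3, the ligase scaffold (0.011, SE 0.082), and BACH1, the repressor that competes with NRF2 at HMOX1 (0.11, SE 0.086), did not pass the test.

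Among 32 tested NRF2 targets, 3 were higher and 1 was lower (12.5% in all), with a median of 0.081. Over all genes tested, 1373 of 11955 were called in either direction, 4.94% higher and 6.54% lower. With so few calls on the list, the count is not a result about NRF2 targets as a group. Beside HMOX1 and TXNRD1, FECH, which inserts iron into heme, rose with a log2 fold change of 0.27 (SE 0.087, edgeR adjusted p = 0.048), a call lost in each of the 4 fits without a sample, with values from 0.24 to 0.30, and in DESeq2 (adjusted p = 0.15). UGDH, which makes UDP-glucuronate, fell, with a log2 fold change of −0.43 (SE 0.096, edgeR adjusted p = 0.0044). UGDH missed the threshold without vector replicate 2 (−0.38, edgeR adjusted p = 0.061) and without shCHD7_2 replicate 2 (−0.32, edgeR adjusted p = 0.052). The cystine transporter SLC7A11 (−0.091, SE 0.090) and the ferritin chains FTH1 (0.11, SE 0.071) and FTL (0.076, SE 0.070) did not pass the test. Downstream of heme oxygenase, the biliverdin reductases BLVRA (−0.028, SE 0.091) and BLVRB (0.14, SE 0.099) did not pass it either. ME1, ABCC3, AKR1B10, AKR1C1, AKR1C2, AKR1C3 and ALDH3A1 are not analysed here.

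The thioredoxin and peroxiredoxin list had 3 of 20 tested genes higher and 0 lower (2 at an unadjusted p under 0.05 in edgeR, 0 in DESeq2), with a median of 0.074. The shares over all genes tested were 4.94% higher and 6.54% lower. Beside TXNRD1, the higher genes were TXNIP, the inhibitor that binds reduced thioredoxin, and PRDX3, the mitochondrial peroxiredoxin. TXNIP had 24.7 and 26.5 CPM in vector and 42.2 and 40.9 CPM in shCHD7_2 samples, a log2 fold change of 0.70 (SE 0.096, edgeR adjusted p = 3.1e-05). The groups of TXNIP were far apart and it passed the test in all 4 fits without a sample. PRDX3 rose by 0.29 on the log2 scale (SE 0.074, edgeR adjusted p = 0.011), but lost its call without vector replicate 1 (0.27) and without vector replicate 2 (0.31). Thioredoxin itself, TXN, had a value of −0.013 (SE 0.077) and the peroxiredoxin PRDX1 0.13 (SE 0.072), neither past the test.

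The glutathione list had 6 of 35 tested genes higher and 3 lower, with a median of −0.0055, whereas DESeq2 called 2 higher and 3 lower. Beside these edgeR counts, 4.94% of all genes tested were higher and 6.54% lower. GPX3, the secreted glutathione peroxidase, had low values of 6.4 and 3.7 CPM in vector and 9.5 and 9.4 CPM in shCHD7_2 samples, a log2 fold change of 0.90 (SE 0.19, edgeR adjusted p = 0.0033). GPX3 rested on vector replicate 2, without which the value was 0.56 and the edgeR adjusted p 0.13. SLC25A39, the mitochondrial glutathione importer, rose by 0.46 (SE 0.080, edgeR adjusted p = 4.7e-04). GPX8, a peroxidase of the endoplasmic reticulum, fell, with a log2 fold change of −0.56 (SE 0.087, edgeR adjusted p = 1.1e-04), and so did GGCT, which acts in glutathione breakdown, with −0.54 (SE 0.096, edgeR adjusted p = 5.2e-04). The calls of SLC25A39, GPX8 and GGCT held in all 4 fits without a sample. Genes of the list thus went in both directions, and GCLC, GCLM and GPX4, which it also holds, did not pass the test.

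GPX4 stands at the centre of the lists on ferroptosis and selenoproteins. For both lists the background is 4.94% higher and 6.54% lower over all genes tested, at an adjusted p under 0.05. The ferroptosis and iron list had 4 of 26 tested genes higher and 0 lower (2 at an unadjusted p under 0.05 in edgeR, 0 in DESeq2), with a median of 0.033. Beside HMOX1, these were SAT1, which acetylates polyamines (0.44, SE 0.082, edgeR adjusted p = 8.1e-04), GCH1, the entry enzyme of tetrahydrobiopterin synthesis (0.40, SE 0.11, edgeR adjusted p = 0.017), and DHCR7, the last enzyme of cholesterol synthesis (0.42, SE 0.12, edgeR adjusted p = 0.027). GCH1 and DHCR7 kept the call only in the fit without shCHD7_2 replicate 1, with values over the 4 fits of 0.32 to 0.48 and 0.36 to 0.49, and both lost it in DESeq2 (adjusted p = 0.11 and 0.15), which called 2 genes of the list higher. The selenoprotein list had 5 of 25 tested genes higher and 0 lower (4 at an unadjusted p under 0.05 in edgeR, 0 in DESeq2), with a median of −0.017. Beside TXNRD1 and GPX3, SELENOT (0.40, SE 0.074, edgeR adjusted p = 9.2e-04) and SELENOW (0.47, SE 0.092, edgeR adjusted p = 0.0013), small selenoproteins with a thioredoxin-like fold, were higher in all 4 fits without a sample.

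Of the enzymes that supply NADPH, on which TXNRD1 and NQO1 draw, 1 of 17 tested was higher and 1 lower, with a median of −0.079. All genes tested gave 4.94% higher and 6.54% lower. IDH2, the mitochondrial isocitrate dehydrogenase, rose by 0.44 (SE 0.084, edgeR adjusted p = 0.0011), and MTHFD1, a cytosolic folate enzyme, fell, with a log2 fold change of −0.35 (SE 0.075, edgeR adjusted p = 0.0032). The MTHFD1 call was lost without vector replicate 2 (−0.30, edgeR adjusted p = 0.15). Of the superoxide and hydrogen peroxide enzymes only 6 of 12 listed genes passed the filter, and 0 were called in either direction (2 higher and 2 lower at an unadjusted p under 0.05 in edgeR, 0 in DESeq2).

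On the list of genes linked to p53 and redox, 8 of 13 tested were higher and 0 lower (0 at an unadjusted p under 0.05 in edgeR, 0 in DESeq2), with a median of 0.41. Some of its genes, such as CDKN1A and GDF15, are not redox enzymes, so the count is not one of redox defense. SESN1 (0.21, SE 0.13), SESN2 (0.16, SE 0.079), SCO2 (0.20, SE 0.15), GLS2 (0.15, SE 0.12) and PRKAB1 (−0.18, SE 0.12) did not pass the test. All genes tested had 4.94% higher and 6.54% lower. None of the 9 genes of the NRF2 group is on this list, and it was drawn up with earlier results of these data known. It holds CDKN1A, RRM2B and TP53INP1. In the paper, the same RNA-seq named the p53 pathway as the most enriched. These genes were then measured by RT-PCR as representatives of that pathway and reported as raised on CHD7 knockdown. The share of the list is therefore not ranked against those of the other lists. TP53INP1, a stress-induced p53 cofactor, had 15.7 and 15.0 CPM in vector and 56.6 and 43.6 CPM in shCHD7_2 samples, the greatest log2 fold change of the lists at 1.71 (SE 0.12, edgeR adjusted p = 1.0e-09). GDF15, a secreted stress cytokine (1.54, SE 0.10), CDKN1A, the cell cycle inhibitor p21 (1.04, SE 0.080), and RRM2B, a ribonucleotide reductase subunit (0.75, SE 0.082), were also past the fold threshold, as was TXNIP. Smaller rises were measured for FDXR, ferredoxin reductase (0.57, SE 0.10), TIGAR, which diverts glucose carbon to NADPH production (0.41, SE 0.088), and ALDH4A1, a proline catabolic enzyme (0.36, SE 0.10). TIGAR lost its call without vector replicate 1 (0.36, edgeR adjusted p = 0.077), and ALDH4A1 lost it without vector replicate 2 (0.27) and without shCHD7_2 replicate 2 (0.28), and in DESeq2 (adjusted p = 0.14). HMOX1, the most changed of the 9 genes (0.65), had a smaller log2 fold change than TP53INP1, GDF15, CDKN1A, RRM2B and TXNIP. The same held against GPX3 (0.90), which is not on this list. Since the lists were drawn up with earlier results known, these comparisons are background.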

How the data were processed

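RNA-seq of 2 vector and 2 shCHD7_2 samples was analysed, grouped by sample title. The authors deposited estimated counts per gene, not normalized (13.7% to 14.7% of values in a sample are not whole), and deposited FPKM values, normalized for gene length and depth. The submitters' processing notes name Bowtie2, RSEM, DESeq2 and hg38, without roles. Counts were rounded to whole numbers. The quasi-likelihood test of edgeR 4.0.16 (R 4.3.3) followed filterByExpr and TMM scaling, with Benjamini-Hochberg adjustment over 11955 genes. Standard errors follow from the quasi-likelihood F statistic, and CPM use TMM-scaled totals. Alternatives used DESeq2 1.42.0 and limma 3.58.1. Positions are from GENCODE 29 on GRCh38. Python 3.11.15 was used for lists and motifs. The labels name no batch.

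The genes and lists were chosen with earlier results of these data known. Named are the 9 genes and CHD7, every list gene past both thresholds, and up to 3 further genes per list with the smallest p at an adjusted p under 0.05. CUL3, BACH1, SLC7A11, FTH1, FTL, BLVRA, BLVRB, TXN, PRDX1, AGPS, EID3, SESN1, SESN2, SCO2, GLS2, PRKAB1, the marker genes and the genes not analysed are outside this rule and were picked with their values in view. The TMM factors ran from 0.983 to 1.02, and the biological coefficient of variation was 0.0579. With 2 samples per group, intervals rest on the spread pooled across genes.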

Additional observations from a re-analysis of the deposited data

How the results depend on the processing

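With 2 samples per group and 1 hairpin, small differences of single genes could not be resolved. Across 13 alternatives planned and 2 chosen after seeing the data (a crossed block and robust dispersions), NFE2L2, GCLM and SRXN1 kept their direction and stayed under the threshold. HMOX1 kept its rise in all 15 (log2 fold change 0.52 to 0.80) and passed an adjusted p of 0.05 in 13. TXNRD1 rose in all 15 (0.30 to 0.44) and passed in 12. NQO1 ranged from 0.22 to 0.30 and passed in 4. KEAP1 kept its direction and passed in 1, the crossed block. GPX4 reversed with library totals (0.026) and with limma on FPKM at a pseudocount of 1 (0.019), at 0.1 (0.019) or with no filter (0.019). The median of all genes tested was 0.045 with library totals and 0.038, 0.042 and 0.022 in those limma fits. Without each sample in turn, GPX4 ranged from −0.17 to 0.12 and GCLC from −0.0051 to 0.067. CHD7 had a log2 fold change of −0.51 in limma with no filter and missed the threshold (adjusted p = 0.10).

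The number of genes past both thresholds, 344 (180 higher), was 219 (91 higher) in DESeq2, 141 (53 higher) in edgeR with no filter, 172 (86 higher) in limma with a pseudocount of 1, and 23 (6 higher) in limma with no filter. At the adjusted p alone, 1373 genes became 800 in DESeq2, 197 in edgeR with no filter, 24 in limma with no filter and 610 to 1702 without each sample. Of the 9 genes, 1 was past both thresholds and 2 past the adjusted p; these became 0 and 0 in edgeR with no filter and in limma with no filter, and ranged from 0 to 1 and from 1 to 2 without each sample. The 30 calls on the wider lists became 8 in edgeR with no filter, 0 in limma with no filter and 18 to 38 without each sample. In these fits the lone sample of a group is assumed to vary like the other group. The causes were not tested.

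The labels number the replicates but do not say that same-numbered samples belong together. The correlation of same-numbered deviations from the group means was −0.198. With 2 samples per group, the crossed pairing has the same size with the opposite sign. The value therefore cannot settle whether the samples are paired. With the replicate block, 755 genes passed the adjusted p and 329 both thresholds, with 1 of the 9 genes past both and 20 list calls (MAFF, FECH, PRDX3, GCH1, DHCR7 and ALDH4A1 were among those lost). The crossed pairing, which was chosen after seeing the data, gave 3751 and 423 genes, 4 of the 9 genes at the adjusted p and 70 list calls. These counts are given for their dependence on that choice and not as results.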
